A study of Homo sapiens with 15 samples.

Results

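Microexons, here exons of 3 to 27 nucleotides (nt), were followed in human HEK-293 cells, an embryonic kidney cell line, with and without extra GEMIN5. The deposited splicing table held 4059 exon events of this length among 721551 splicing events of all kinds. An event was kept when at least 10 reads covered its inclusion and skipping junctions together in at least 10 of the 15 libraries, whatever its inclusion, and 832 events passed. These 832 microexons carried 736 host gene names, against 45631 exons of 28 to 300 nt that passed the same read rule. The members were chosen by their read numbers and length and not by inclusion, so read depth is given below as a description, and no test is made of it.

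The libraries were poly(A) RNA from cells transfected for 24 h with the plasmid pcDNA3Xpress-Gemin5 by Lipofectamine LTX (GEMIN5) and from untreated cells (control). No mock or empty-vector transfection was among the labelled samples, so an effect of GEMIN5 and one of transfection cannot be told apart. All cells were held in cycloheximide at 0.1 mg/mL for 10 min on ice, which stops elongating ribosomes, before lysis. RNA was then taken from the polysomes, pooled as fractions 8 to 12 of the 12 cut from a sucrose gradient (Polysome), or from the whole cytoplasmic lysate (Input). There were 4 Polysome GEMIN5, 4 Polysome control, 3 Input GEMIN5 and 4 Input control libraries, described as independent biological samples of 1 cell line. GEMIN5 is a WD-repeat protein of the SMN complex that recognises small nuclear RNAs and also binds ribosomes and messenger RNAs.

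Microexons are too short to be spanned by the protein contacts that define ordinary exons, and their splicing leans on enhancer sequences in the upstream intron. In neurons the protein SRRM4, with SRSF11 and RNPS1, switches on many of them, PTBP1 holds many of them off, and RBFOX and QKI proteins act on others. Because most of the neuronal ones keep the reading frame, they add or remove a few amino acids, often at surfaces where proteins meet. Outside neurons and muscle, most regulated microexons are skipped, while a separate group of very short exons is spliced into nearly every transcript of its gene.

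The microexons that carry the results are printed here from GENCODE 29 transcripts (hg38), 5′ to 3′, with the microexon in capitals and 15 bases of the joined neighbouring exons on each side in lower case. The first set holds called microexons and others whose values are given below, all of them annotated as coding. RPL41 lies at chr12:56117189-56117211 (+), APEH at chr3:49679593-49679616 (+), CYTH2 at chr19:48477717-48477719 (+), AP2M1 at chr3:184180645-184180650 (+) and VPS29 at chr12:110499535-110499546 (−). GTF3C5 lies at chr9:133054944-133054964 (+), MAX at chr14:65101546-65101572 (−), ARRB1 at chr11:75271701-75271724 (−), C14orf166 at chr14:52004240-52004242 (+) and CLTC at chr17:59687001-59687021 (+).
RPL41: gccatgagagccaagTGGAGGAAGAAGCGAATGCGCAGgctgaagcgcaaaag
APEH: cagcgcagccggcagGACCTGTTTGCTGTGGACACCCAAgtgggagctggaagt
CYTH2: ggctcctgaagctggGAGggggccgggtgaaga
AP2M1: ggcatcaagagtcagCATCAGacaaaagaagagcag
VPS29: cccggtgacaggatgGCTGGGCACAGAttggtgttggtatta
GTF3C5: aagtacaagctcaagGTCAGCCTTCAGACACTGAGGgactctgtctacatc
MAX: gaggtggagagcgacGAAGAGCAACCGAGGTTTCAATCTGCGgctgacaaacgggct
ARRB1: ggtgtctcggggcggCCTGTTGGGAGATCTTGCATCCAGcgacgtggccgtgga
C14orf166: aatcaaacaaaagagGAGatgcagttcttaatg
CLTC: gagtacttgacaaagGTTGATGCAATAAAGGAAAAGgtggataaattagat

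The second set holds microexons of genes known for neuronal microexons, none of which exceeded a mean inclusion of 5% here. KDM1A lies at chr1:23066060-23066071 (+), DCTN1 at chr2:74363614-74363628 (−), BIN1 at chr2:127053422-127053445 (−) and AP1S2 at chrX:15828192-15828200 (−).
KDM1A: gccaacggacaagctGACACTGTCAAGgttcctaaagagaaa
DCTN1: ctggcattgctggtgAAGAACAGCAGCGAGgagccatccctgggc
BIN1: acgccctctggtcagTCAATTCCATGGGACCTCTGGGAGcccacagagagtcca
AP1S2: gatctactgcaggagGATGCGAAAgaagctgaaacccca

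The last set holds near-constitutive microexons, shown because paralogous or neighbouring genes carry one of the same length. UBE2A lies at chrX:119575375-119575400 (+), UBE2B at chr5:134376669-134376694 (+), YTHDF1 at chr20:63215577-63215601 (−) and YTHDF2 at chr1:28737658-28737682 (+). HPRT1 lies at chrX:134490188-134490205 (+), PRTFDC1 at chr10:24858392-24858409 (−), COMMD6 at chr13:75537664-75537675 (−) and UCHL3 at chr13:75549976-75549987 (+).
UBE2A: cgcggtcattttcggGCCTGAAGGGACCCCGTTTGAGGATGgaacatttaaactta
UBE2B: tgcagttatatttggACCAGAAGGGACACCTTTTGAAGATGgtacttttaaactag
YTHDF1: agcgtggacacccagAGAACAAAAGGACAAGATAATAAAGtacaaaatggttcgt
YTHDF2: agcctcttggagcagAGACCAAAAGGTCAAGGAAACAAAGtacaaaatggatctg
HPRT1: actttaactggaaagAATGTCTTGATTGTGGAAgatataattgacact
PRTFDC1: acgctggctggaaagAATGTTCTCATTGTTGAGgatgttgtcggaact
COMMD6: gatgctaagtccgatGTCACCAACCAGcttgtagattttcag
UCHL3: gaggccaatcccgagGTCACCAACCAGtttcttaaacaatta

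Inclusion is given as PSI, the percentage of junction reads that include the exon, after the table's own correction of read numbers. Gene counts per library summed to 12869066 to 15024798 in Polysome GEMIN5, 11191417 to 14992806 in Polysome control, 17230133 to 18407933 in Input GEMIN5 and 13263269 to 17960319 in Input control. The 3 Input GEMIN5 libraries stood apart from the rest: their TMM scaling factors were 0.488, 0.354 and 0.374, against 1.27 to 1.55 in the polysome libraries and 0.971 to 1.03 in Input control. They also covered fewer microexons, with 609, 557 and 567 members at 10 reads or more, against 793 or more in each of the other 12 libraries. The part of this coverage and composition in the Input results was not tested. GEMIN5 itself had 11938 to 22005 counts in Polysome GEMIN5 against 66 to 139 in Polysome control, and 9417 to 11848 in Input GEMIN5 against 161 to 258 in Input control, as labelled. The 5 listed HEK-293 genes (NEFL, NEFM, VIM, KRT8, KRT18) were detected in every group, with summed levels of 479 to 683 CPM (TMM-scaled gene counts as a rate of the library total) in Polysome GEMIN5, 522 to 883 in Polysome control, 269 to 324 in Input GEMIN5 and 855 to 1108 in Input control. The 9 listed neuronal genes summed to 11.6 to 18.8 CPM in Polysome GEMIN5, 10.7 to 14.1 in Polysome control, 1.62 to 2.34 in Input GEMIN5 and 4.30 to 5.68 in Input control. Liver genes such as ALB summed to 0.855 to 1.82 CPM in Polysome GEMIN5, 98.7 to 174 in Polysome control, 1.62 to 3.21 in Input GEMIN5 and 0.947 to 110 in Input control, and their part in any splicing value was not tested.

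Most of the 832 microexon events had low inclusion in these cells, and the share depended on annotation. The mean PSI over libraries was under 5 for 642 of the 832 members (77.2%), from 5 to 95 for 64 (7.7%) and over 95 for 126 (15.1%). Among exons of 28 to 300 nt the shares ran the other way, with 15.2% under 5, 10.3% from 5 to 95 and 74.6% over 95. Members with the same coordinates in GENCODE 29 had 45.6% under 5, 17.6% from 5 to 95 and 36.8% over 95. Annotated exons of 28 to 300 nt had 6.8%, 10.0% and 83.2%. Without such annotation, 90.7% of members and 56.6% of exons of 28 to 300 nt were under 5. These shares are a description, and no test was made between the length classes. Without the Input GEMIN5 libraries the members divided 642, 63 and 127, and counting 1 member per pair of flanking splice sites they divided 622, 62 and 124 of 808.

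Inclusion was higher in each longer length class. Of the 413 microexons of 3 to 9 nt, 9 (2.2%) had a mean PSI over 95, 12 were intermediate and all others were under 5. The share over 95 was 11.4% at 10 to 15 nt, 28.4% at 16 to 21 nt and 41.7% at 22 to 27 nt, against 52.0% at 28 to 40 nt and 73.8% at 61 to 100 nt. At the edge of the length rule, the 51 microexons of 27 nt divided 22, 11 and 18 among the low, intermediate and high classes, against 12, 3 and 17 of the 32 exons of 28 nt. At the edge of the read rule, the 36 members with reads in exactly 10 libraries divided 31, 2 and 3, against 29, 7 and 5 of the 41 events with reads in 9 libraries.

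**Figure D1:**
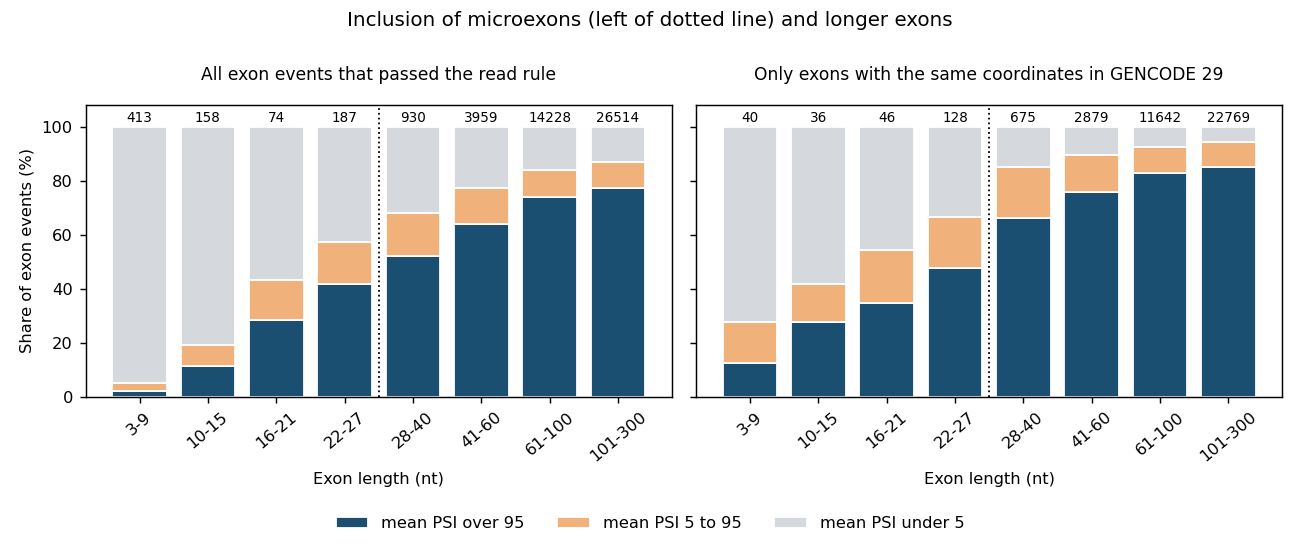
Share of exon events (%, vertical axis) with mean PSI over 95, from 5 to 95 and under 5 by exon length in nt (horizontal axis), for all events that passed the read rule and for exons with the same coordinates in GENCODE 29, with the number of events above each bar. The share over 95 is 2.2% at 3 to 9 nt and 41.7% at 22 to 27 nt, and the order of the length classes is the same in both panels.

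The classes also differed by annotation. Only 250 of the 832 had an exon of the same coordinates in GENCODE 29, and of these 114 were under 5, 44 intermediate and 92 over 95. The 582 without such an exon divided 528, 20 and 34. Of the 197 members of 3 nt, 9 were in GENCODE. The table assigned 522 members to its separate module for very short exons (MIC), and 497 of those had a mean PSI under 5. For 60 members the event pooled an alternative exon boundary, so the printed length then belongs to 1 of the boundaries.

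Of the 250 annotated microexons, 205 were wholly coding, 9 lay in a 5′ untranslated region, 4 in a 3′ untranslated region, 15 crossed a coding boundary and 17 were noncoding. The length was a multiple of 3 for 124 of the 205 coding ones (60.5%, Wilson 95% interval 53.7% to 66.9%). The interval covers counting error only. With reads required in all 15 libraries the share was 53.3% of 122 coding microexons, under the lower limit of that interval. In coding exons of 28 to 300 nt that passed the main read rule it was 38.7%, and no test was made between the length classes. The share followed inclusion: 61 of 82 (74.4%) of the coding microexons under a PSI of 5, 26 of 37 (70.3%) of the intermediate ones and 37 of 86 (43.0%) of those over 95 were multiples of 3. Coding exons of 28 to 300 nt gave 55.1%, 43.9% and 37.9% in the same 3 classes.

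The skipped class was made mainly of events that were never seen to be included. Of its 642 members, 436 had no inclusion read in any library, with a median upper limit on PSI of 0.464% (0.00232% to 2.08%) from a count of 0, taken as 3 reads of each event's total. A further 173 had a mean PSI under 1 but above 0. Of the 197 members of 3 nt, the 5 with the most reads were taken as examples, a choice that favours abundant mRNAs. RPL8, a protein of the large ribosomal subunit, had 0 inclusion reads of 129400, and RPS24, of the small subunit, had 4.95 corrected inclusion reads of 68956. COX4I1 of respiratory complex IV had 28.45 of 58865, NDUFS5 of complex I had 2.23 of 50495, and the proteasome assembly factor POMP had 2.12 of 34920. The RPS24 triplet (AAG at chr10:78037439-78037441) is an annotated exon. A 22-nt microexon of the same gene lay in the opposite class, with a mean PSI of 99.98 over 55902 reads. RPS24 carried 5 members and DCTN2 carried 4, of the 80 genes with more than 1, and 31 genes had members in different inclusion classes.

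Microexon events of genes known for neuronal regulation had low inclusion in these cells, as most members did. Of 63 such hosts, 7 had members that passed the read rule, with 11 microexons in all, every one with a mean PSI under 5 and 7 never included. Over all members 77.2% were under 5, with 45.6% of the annotated and 90.7% of the unannotated ones. The 12-nt exon of KDM1A, the histone demethylase whose neuronal form carries it, had 0 inclusion reads of 641, and a second 12-nt KDM1A event had 0 of 717. BIN1, a membrane-curving protein of the amphiphysin family, had 0 of 485 for its 24-nt exon. DCTN1, the largest subunit of dynactin, had 0 of 273 for its 15-nt exon, and AP1S2, the small subunit of the AP-1 clathrin adaptor, had 0 of 923 for its 9-nt exon. The adhesion kinase PTK2 (9 nt) had 6.12 corrected inclusion reads of 189, the amyloid precursor adaptor APBB1 (4 nt) had 2.41 of 518, and the 4 microexons of DCTN2, the dynamitin subunit of dynactin, had between 0 and 8.54 of 3348 or 3349 reads each. SRRM4, the neuronal activator of microexons, had 0 counts in every Polysome GEMIN5, Input GEMIN5 and Input control library and at most 1 in a Polysome control library.

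Near-constitutive microexons formed the second large group, 126 members with a median length of 23 nt, of which 98 were 18 nt or longer and 89 had a mean PSI over 99. Among the best covered were the 22-nt exon of SNRPB, an Sm ring protein, with 99.99, and the 25-nt exon of BSG (basigin) with 100. MRPL33 of the mitochondrial ribosome was lower, at 96.44 for its 19-nt exon. Only 9 of the 126 were 9 nt or shorter: PHB2 (3 nt, 99.91 over 1855 reads), MPC1 (4 nt, 99.20), RNASET2 (6 nt, 100), MCRS1, PITPNA and PITPNC1 (8 nt; 100, 97.48 and 100) and HNRNPA2B1, NUDT5 and GTF2H3 (9 nt; 100, 100 and 96.90). These examples, and the pairs that follow, were chosen after their values were seen.

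Several near-constitutive microexons had a counterpart of the same length in a paralogue. The ubiquitin-conjugating enzymes UBE2A and UBE2B each held a 26-nt exon, identical at 21 positions, with mean PSI 99.95 and 97.16. The m6A readers YTHDF1 and YTHDF2 shared a 25-nt exon with 20 identical bases, and the purine phosphoribosyltransferase HPRT1 shared an 18-nt exon with its relative PRTFDC1 at 13 bases. CCDC28A and CCDC28B had 23-nt exons alike at 14 bases. The parvins PARVA and PARVB had 20-nt exons alike at only 7 bases. Their flanking bases were identical at 8 of 15 positions before the exon and 12 of 15 after it. Whether the exons of a pair share an origin was not tested. A different kind of pair was COMMD6 and UCHL3, 2 unrelated genes on opposite strands of chromosome 13 with 12300 bases between their microexons. Both carry the same 12-nt exon, GTCACCAACCAG, with mean PSI 99.20 and 98.77, and the flanking coding bases were identical at 10 of 15 positions before it and 4 of 15 after it. No other 2 of the 225 annotated members of 8 nt or longer had the same sequence.

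The 64 microexons with intermediate inclusion had a median length of 21 nt, and 44 of them were annotated, 37 as wholly coding. They lay in 63 gene names, and 32 had a mean PSI from 20 to 80. For the 37 of them with reads in all 15 libraries, the 4 group means spanned a median of 7.22 points, and 24 stayed within 10 points. The 373 low members with reads in all libraries spanned at most 7.09 points and the 80 high ones at most 8.53. The median SD within a group was 5.31 points in Polysome GEMIN5, 5.43 in Polysome control, 7.01 in Input GEMIN5 and 4.82 in Input control.

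**Figure D2:**
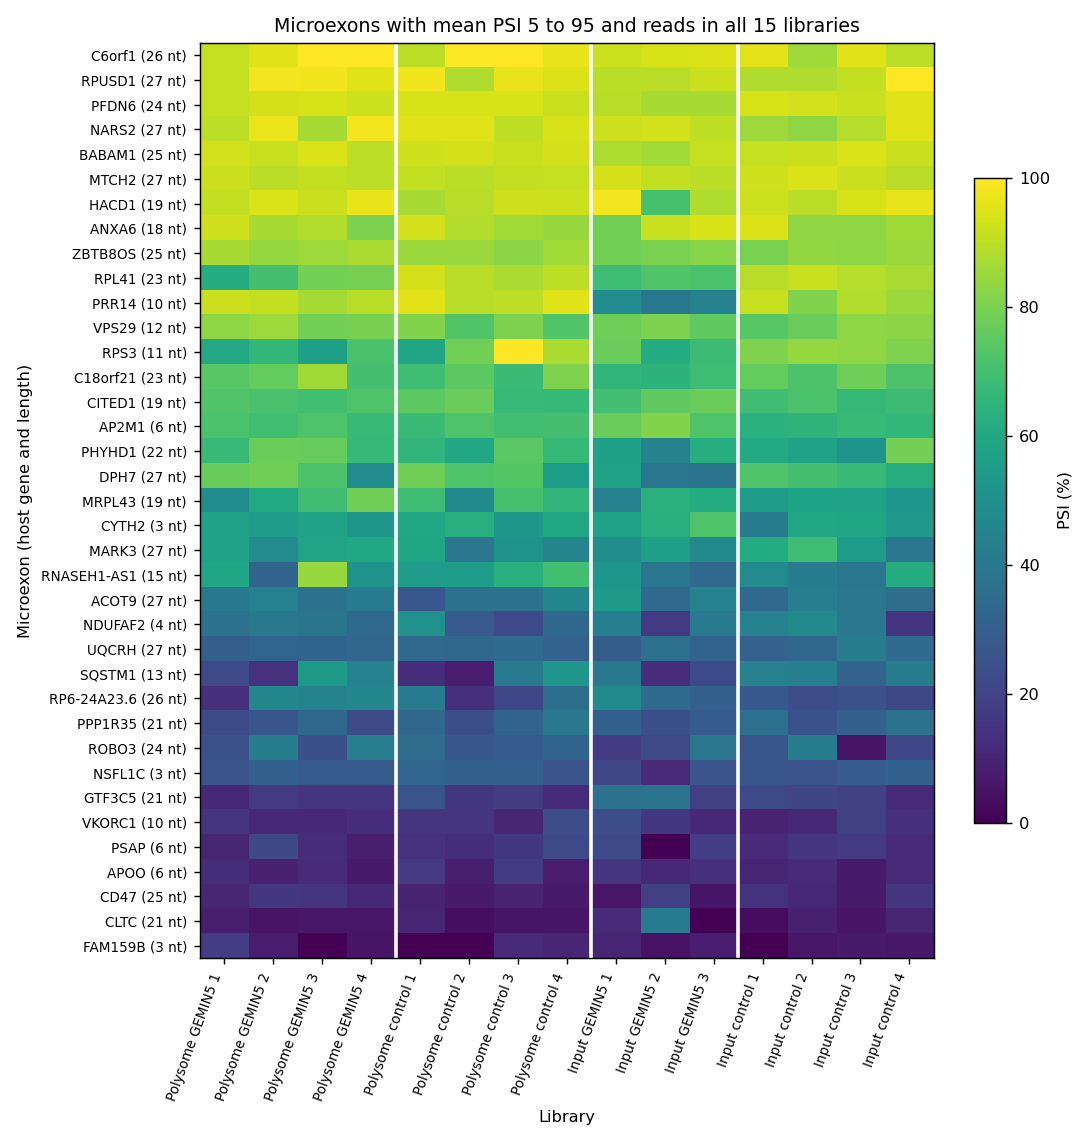
PSI (%, colour) of the 37 microexons with mean PSI from 5 to 95 and reads in all 15 libraries (rows, host gene and length, highest mean PSI on top) in each library (columns, by group). In 24 rows the group means stay within 10 points, and PRR14 is darker in the 3 Input GEMIN5 libraries, at 40.42 to 48.09.

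CYTH2 is cytohesin-2, an ARF exchange factor whose GAG triplet sets the number of glycines in the phosphoinositide-binding domain. Its 3-nt microexon had a PSI of 57.62, 55.21, 57.76 and 52.78 in Polysome GEMIN5, 59.6, 62.7, 53.18 and 59.51 in Polysome control, 57.75, 62.98 and 72.65 in Input GEMIN5 and 41.84, 60.06, 58.77 and 53.96 in Input control. The groups overlapped in both GEMIN5 comparisons, and the Input difference on the log2 odds scale was 0.64 (SE 0.37, limma adjusted p = 0.326).

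NSFL1C, the p47 cofactor of the p97 ATPase in Golgi reassembly, had a 3-nt microexon at 25.54, 31.23, 28.26 and 28.26 in Polysome GEMIN5, 32.63, 30.54, 30.96 and 25.61 in Polysome control, 21.43, 12.28 and 26.53 in Input GEMIN5 and 26.92, 25.76, 29.24 and 31.02 in Input control. The 2 lowest values were in Input GEMIN5, where the highest of the 3 overlapped Input control (log2 odds −0.64, SE 0.35, limma adjusted p = 0.304).

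AP2M1, the medium subunit of the AP-2 adaptor that selects cargo for clathrin-coated vesicles, had a 6-nt microexon at 71.66, 69.79, 72.32 and 67.54 in Polysome GEMIN5, 68.12, 72.53, 69.79 and 70.41 in Polysome control, 77.03, 80.95 and 72.41 in Input GEMIN5 and 63.86, 65.06, 67.3 and 66.35 in Input control. The Input groups did not overlap, with a gap of 5.11 points, but the difference missed the threshold (log2 odds 0.75, SE 0.29, limma adjusted p = 0.164), and only 29 to 36 reads lay behind each Input GEMIN5 value. The polysome groups overlapped.

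VPS29, a subunit of retromer, which returns receptors from endosomes, had a 12-nt microexon at 82.84, 85.33, 79.14 and 79.41 in Polysome GEMIN5, 81.08, 73.04, 80.13 and 72.78 in Polysome control, 77.98, 80.27 and 75.55 in Input GEMIN5 and 74.07, 77.32, 82.86 and 82.68 in Input control. All 15 values lay between 72.78 and 85.33, and both GEMIN5 comparisons overlapped. Clathrin heavy chain itself, CLTC, had a 21-nt microexon at 8.57, 5.3, 6.61 and 5.88 in Polysome GEMIN5, 10.42, 3.6, 5.79 and 5.68 in Polysome control, 11.81, 40.98 and 0 in Input GEMIN5 and 3.45, 8.9, 5.15 and 10.2 in Input control. The highest and the lowest of the 15 values were both in Input GEMIN5, on 14 and 12 reads, the fewest of any library.

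AP1B1, the beta subunit of the AP-1 adaptor, had few reads. Its 9-nt microexon had 57.38, 0, 0 and 0 in Polysome GEMIN5, 0, 55.56, 66.88 and 35.35 in Polysome control, 55.56 in the only Input GEMIN5 library with 10 reads or more and 55.56, 57.76, 35.35 and 62.5 in Input control, with 265 reads over all 15 libraries together and at most 37 in any of them. Values of 0 and of 35.35 or more occurred in the same polysome groups. The mean polysome difference of −25.1 points was the largest of any member in that comparison, and the groups overlapped.

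MAX, the partner of MYC, had its 27-nt microexon at 45.59, 53.85, 39.76 and 47.73 in Polysome GEMIN5, 51.61, 50.4, 54.9 and 61.17 in Polysome control and 40.86, 59.32, 39.27 and 39.27 in Input control, while the Input GEMIN5 libraries had fewer than 10 reads and gave no value. The polysome groups overlapped by 3.45 points (log2 odds −0.45, SE 0.32, limma adjusted p = 0.964). ARRB1, beta-arrestin-1, had its 24-nt microexon at 35.66, 46.56, 33.97 and 50.73 in Polysome GEMIN5, 46.16, 39.82, 52.72 and 43.57 in Polysome control and 54.56, 33.99, 33.99 and 40.71 in Input control, again with no value in Input GEMIN5. Its groups overlapped throughout.

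GTF3C5, a subunit of the RNA polymerase III factor TFIIIC, had a 21-nt microexon at 10.99, 17.09, 15.53 and 15.32 in Polysome GEMIN5, 25.86, 16.3, 17.86 and 12.42 in Polysome control, 37.19, 38.46 and 18.99 in Input GEMIN5 and 21.98, 20.9, 19.61 and 12.09 in Input control. Of the Input GEMIN5 values, 37.19 and 38.46 lay above every other library and 18.99 lay among the controls (limma adjusted p = 0.198). Between fractions of GEMIN5 cells the groups did not overlap, with polysomes lower (log2 odds −1.37), but the difference missed the threshold at a limma adjusted p of 0.0847. C14orf166 (RTRAF), an RNA-binding protein of the tRNA ligase complex, had a 3-nt microexon with a mean PSI just under 5, at 1.21, 5.63, 6.4 and 3.98 in Polysome GEMIN5, 1.7, 2.47, 1.19 and 3.99 in Polysome control, 10.87, 10.88 and 6.52 in Input GEMIN5 and 5.26, 3.52, 3.77 and 3.63 in Input control. All 3 Input GEMIN5 values were above all 4 Input control values, by 1.26 points between the nearest, but the difference missed the threshold (log2 odds 1.26, SE 0.38, limma adjusted p = 0.0931).

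The 8 microexons with mean PSI nearest 50 and reads in all libraries were those of RNASEH1-AS1, MARK3, CYTH2, MRPL43, ACOT9, DPH7, NDUFAF2 and PHYHD1. MARK3, a microtubule affinity-regulating kinase, ran from 39.19 to 68.92 over the 15 libraries for 27 nt, and ACOT9, a mitochondrial acyl-CoA thioesterase, from 27.18 to 53.87 for 27 nt. MRPL43 of the mitochondrial ribosome (19 nt) ran from 43.95 to 78.15, the complex I assembly factor NDUFAF2 (4 nt) from 15.42 to 50.41, and the noncoding RNASEH1-AS1 (15 nt) from 32.14 to 84.62. In these 5 the groups overlapped in both GEMIN5 comparisons, and neither comparison passed the test. PHYHD1, a dioxygenase-domain protein, had its 22-nt microexon at 67.58, 77.73, 76.59 and 66.93 in Polysome GEMIN5 against 57.19, 44.82 and 62.19 in Input GEMIN5, a gap of 4.74 points that missed the threshold (log2 odds 1.09, SE 0.37, limma adjusted p = 0.118).

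DPH7, which acts in diphthamide synthesis on elongation factor EEF2, had a 27-nt microexon at 76.67, 78.25, 72.16 and 48.19 in Polysome GEMIN5, 78.48, 72.52, 73.53 and 55.83 in Polysome control, 57.65, 39.33 and 38.62 in Input GEMIN5 and 72.41, 70.34, 67.38 and 62.3 in Input control. The Input groups did not overlap, and the mean was 22.9 points lower with GEMIN5, but the nearest values were under 5 points apart and the test missed the threshold (log2 odds −1.34, SE 0.35, limma adjusted p = 0.0643). The 27-nt exon of UQCRH, the hinge subunit of respiratory complex III, gave 30.39 to 33.14 in Polysome GEMIN5, 31.4 to 34.78 in Polysome control, 29.33 to 36.82 in Input GEMIN5 and 31.43 to 42.03 in Input control, on 230 reads or more per library, and its groups overlapped. The narrowest range of the 37 was that of MTCH2, a mitochondrial outer membrane protein, whose 27-nt exon lay between 89.57 and 94.35 in all 15 libraries.

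**Figure D3:**
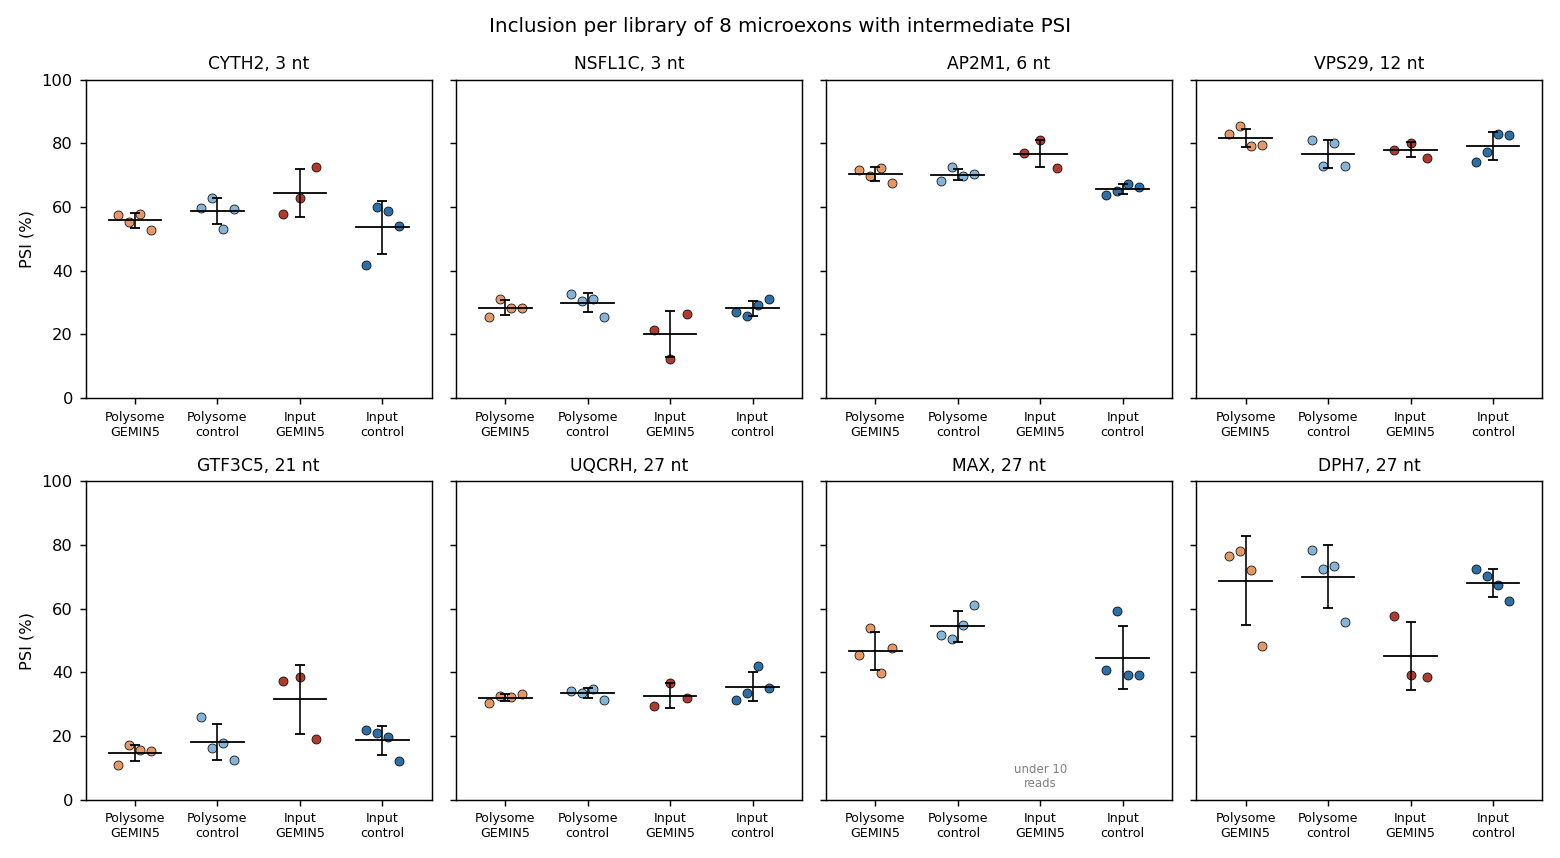
PSI (%, vertical axis) of 8 microexons with intermediate inclusion in each library (points) by group (horizontal axis); lines are group means and bars are ± 1 SD, with no bar where a group has no value. VPS29 stays between 72.78 and 85.33 in all 15 libraries, while DPH7 in Input GEMIN5 lies as low as 38.62.

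The effect of GEMIN5 in the cytoplasmic lysate was read from Input GEMIN5 against Input control. Of the members, 67 had enough reads in all 7 libraries and enough range to be tested, and 3 were called, all of them lower with GEMIN5, in PRR14, RPL41 and APEH (limma, adjusted p under 0.05 over all event types). Over all 11930 events tested, 4.29% were called, 2.08% as lower. At an unadjusted p under 0.05 there were 14 members, where 23.7% of all events passed. The median difference of the 67 members was −1.23 points, against −2.17 over the 6030 exon events tested and −0.986 over all events, with 26 members higher and 41 lower in mean PSI. Of the 263 exon events called in this comparison, 199 were lower. The filter on range admitted 46 members through either group, 16 only through Input GEMIN5 and 5 only through Input control, APEH among the 16.

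PRR14, a protein that tethers heterochromatin to the nuclear lamina, held the member with the largest difference in mean PSI. Its 10-nt event (chr16:30655205-30655214, +) is not in GENCODE 29 with these coordinates and pools a second, upstream start, so no sequence is shown. The PSI of the event therefore covers both starts and not the 10-nt form alone. The PSI was 91.97, 90.65, 86.35 and 89.26 in Polysome GEMIN5, 95.48, 89.27, 89.96 and 95.31 in Polysome control, 48.09, 40.42 and 44.46 in Input GEMIN5 and 91.53, 81.03, 88.67 and 84.79 in Input control. The 3 Input GEMIN5 values, at most 48.09, lay under all other 12 libraries, at least 81.03, and the other 3 groups overlapped. The means were 44.3 ± 3.84 in Input GEMIN5 and 86.5 ± 4.58 in Input control (SD, n = 3 and 4), on 46 to 70 and 71 to 93 reads, a log2 odds difference of −3.01 (SE 0.37, limma adjusted p = 0.00468).

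In polysomes PRR14 averaged 89.6 ± 2.41 with GEMIN5 and 92.5 ± 3.35 in control cells (SD, n = 4 each), a difference on the log2 odds scale of −0.56 (SE 0.51, limma adjusted p = 0.964). The GEMIN5 effect on PRR14 was thus unequal in polysomes and Input, with a difference in log2 odds of 2.45 (SE 0.55, limma adjusted p = 0.0386). It was the 1 call among 77 members tested, where 1.94% of 12697 events were called, 0.921% as higher. That call was lost when any of 10 libraries was left out, among them Input GEMIN5 replicates 2 and 3 (limma adjusted p = 0.0555 to 0.0809), while the difference stayed between 2.23 and 2.66. Within GEMIN5 cells the polysome libraries were higher by 3.39 (SE 0.34, limma adjusted p = 0.00471). The PRR14 gene had 0.55 higher log2 expression in Input GEMIN5 than in Input control with TMM scaling and −0.77 with library size alone.

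RPL41 encodes the shortest protein of the large ribosomal subunit, and its 23-nt coding microexon had lower values with GEMIN5 in both fractions, a difference called in Input only. The PSI was 62.06, 70.6, 78.97 and 79.37 in Polysome GEMIN5, 93.74, 89.11, 87.37 and 90.22 in Polysome control, 68.75, 72.97 and 71.64 in Input GEMIN5 and 89.34, 91.67, 88.83 and 87.38 in Input control. No GEMIN5 library reached any control library in either fraction. The means were 71.1 ± 2.16 in Input GEMIN5 and 89.3 ± 1.78 in Input control (SD, n = 3 and 4), a log2 odds difference of −1.77 (SE 0.34, limma adjusted p = 0.0280). In polysomes they were 72.8 ± 8.19 and 90.1 ± 2.69 (GEMIN5 and control, SD, n = 4 each), a difference of −1.76 (SE 0.44) that missed the threshold over all events (limma adjusted p = 0.782) and passed the rule on size given below. The difference between the effects in the 2 fractions was 0.005 (SE 0.50, limma adjusted p = 0.996).

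The Input call of RPL41 was lost when any 1 of the 7 libraries was left out (limma adjusted p = 0.0549 to 0.0748). RPL41 has many near-identical copies in the genome, so reads assigned to it are uncertain. Gene levels also moved: RPL41 averaged 1890 ± 548 CPM in Polysome GEMIN5, 1609 ± 456 in Polysome control, 23272 ± 4715 in Input GEMIN5 and 3621 ± 200 in Input control (SD). The part of this in the PSI was not tested. The second RPL41 microexon, of 25 nt at chr12:56116775-56116799, stayed between 98.05 and 100 in all 15 libraries.

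APEH, the acylaminoacyl-peptide hydrolase, had a 24-nt coding microexon that was included in full in both polysome groups, at 100 in all 8 libraries on 72 to 175 reads each. In the lysate it had 96.25, 90.69 and 93.49 in Input GEMIN5, against 100, 98.15, 100 and 100 in Input control. The Input groups did not overlap, and the nearest values were under 2 points apart. The means were 93.5 ± 2.78 and 99.5 ± 0.92 (GEMIN5 and control, SD, n = 3 and 4), a log2 odds difference of −3.92 (SE 0.87, limma adjusted p = 0.0448). The Input control libraries at a PSI of 100 had no exclusion reads. Their log2 odds were therefore set by read depth, 145 to 170 reads per Input control library, and by the constant added to each read number. The size of this difference cannot be compared with that of PRR14 for this reason. Only 41 to 52 reads lay behind each Input GEMIN5 value, and the call was lost in 7 of the 14 other settings tried, 6 of them leaving out a library other than Input control replicate 2 (limma adjusted p = 0.0855 to 0.125). Within GEMIN5 cells the polysome libraries were higher by 4.07 (SE 0.67, limma adjusted p = 0.0154). The same limit holds for this size, since no Polysome GEMIN5 library had exclusion reads.

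**Figure D4:**
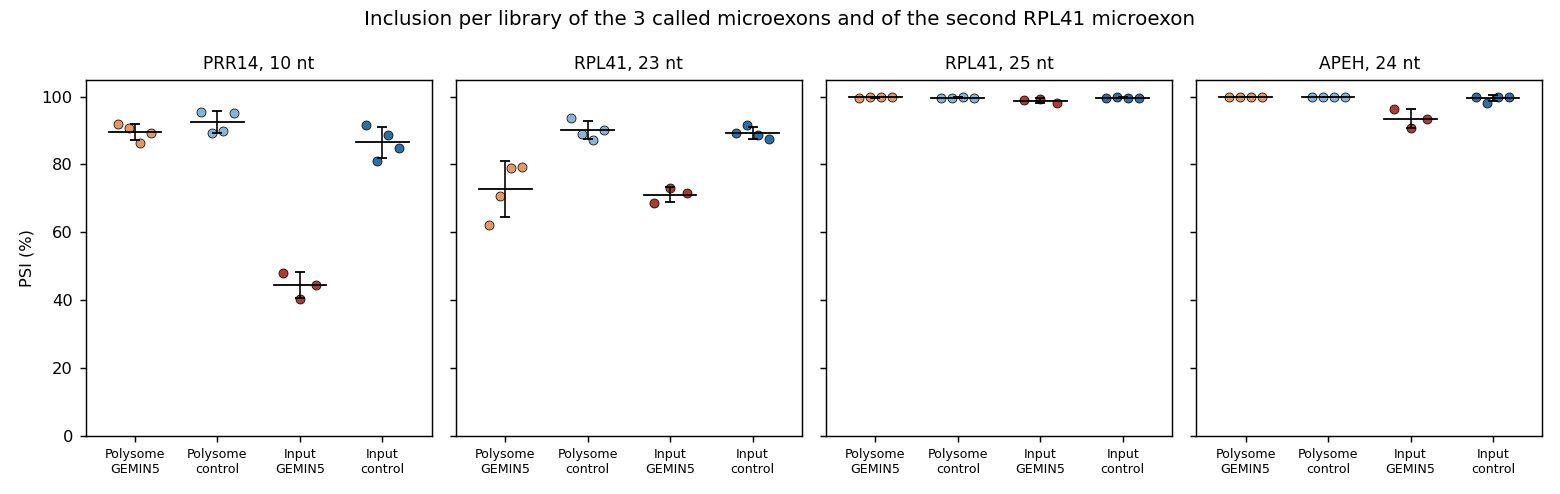
PSI (%, vertical axis) in each library (points) by group (horizontal axis). Shown are the 10-nt event of PRR14, the 23-nt and 25-nt microexons of RPL41 and the 24-nt microexon of APEH. Lines are means and bars ± 1 SD. The PRR14 event pools an alternative exon start, so its PSI is not that of the 10-nt form alone. PRR14 lies at 40.42 to 48.09 and APEH at 90.69 to 96.25 in Input GEMIN5, under the other 3 groups, while the 23-nt RPL41 exon lies lower in every GEMIN5 library than in every control library of its fraction and its 25-nt neighbour stays at 98.05 or above.

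By a rule of size alone, a difference of at least 15 points between group means and a gap of at least 5 points between the group ranges, 2 members were lower in Input GEMIN5, PRR14 and RPL41, where 1.99% of all events passed as lower. In polysomes RPL41 was the only member past it, where 0.0458% of events passed as lower, and it no longer passed without Polysome GEMIN5 replicate 1. Other members differed by 10 points or more in mean PSI in Input without passing either rule. They included SQSTM1, an autophagy receptor, whose 13-nt event was 15.1 points lower with GEMIN5 at a limma adjusted p of 0.236. RPS3 of the small ribosomal subunit, which also has near-identical copies, had an 11-nt event at 60.38, 66.11, 56.92 and 71.1 in Polysome GEMIN5, 59.29, 78.69, 100 and 87.17 in Polysome control, 77.33, 62.04 and 68.4 in Input GEMIN5 and 80.7, 84.28, 83.24 and 80.81 in Input control. Its Input groups did not overlap and its polysome groups did, and neither difference passed the test (limma adjusted p = 0.148 in Input).

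On polysomes, GEMIN5 against control gave no called microexon among 106 tested, and 0.0% of 17485 events of all types were called by limma. At an unadjusted p under 0.05 there were 4 members, where 4.91% of all events passed. The median difference was −0.754 points, against −0.30 over exon events and −0.155 over all events, with 41 members higher and 64 lower. Of the 106, 5 differed by 10 points or more in mean PSI.

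**Figure D5:**
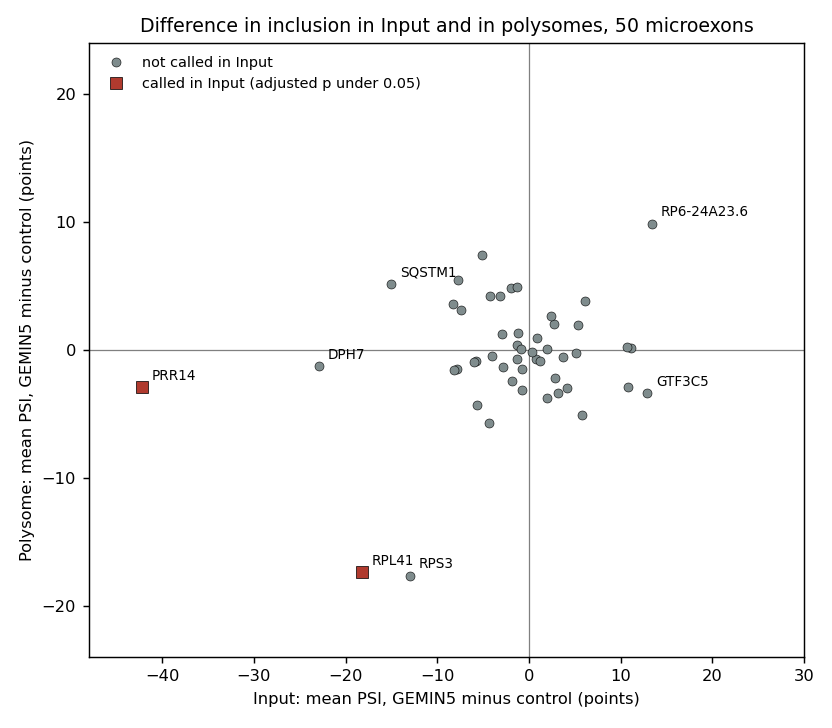
Difference in mean PSI (points, GEMIN5 minus control) in polysomes (vertical axis) against Input (horizontal axis) for the 50 microexons tested in both fractions, with called ones as squares. PRR14 lies far left near the horizontal zero line, and RPL41 and RPS3 lie low on both axes; the 2 comparisons share no library.

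Polysome against Input compares inclusion on polysomes with that in the whole cytoplasmic lysate, which itself holds the polysomes. Loading of microexon forms onto ribosomes was not tested apart from changes in Input. In control cells none of 97 members tested was called by limma, and 0.0186% of 16106 events were. At an unadjusted p under 0.05 there were 5 members, where 8.38% of all events passed. Of these 97, 62 had a higher mean PSI in polysomes and 35 a lower one, with a median of 1.25 points against 0.060 over exon events and 0.050 over all events.

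In GEMIN5 cells 2 of 69 members were called, PRR14 and APEH, both higher in polysomes, where 5.0% of 11943 events were called, 2.29% as higher. At an unadjusted p under 0.05 there were 12 members, where 23.9% of all events passed. The median was 1.27 points, against 2.05 over the 6099 exon events tested and 0.922 over all events, and 44 members were higher and 25 lower. PRR14 alone passed the rule on size, where 2.07% of all events passed as higher. APEH, at 100 in all polysome libraries, entered this test only through its Input GEMIN5 values, as did 15 of the 69 members in all. These comparisons share their Input GEMIN5 libraries with the Input comparison above, so the calls of PRR14 and APEH in both rest on the same 3 libraries.

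Host gene levels were tested from the gene counts. Of the 673 host genes tested, 443 were called in Input GEMIN5 against Input control, 199 higher and 244 lower (edgeR quasi-likelihood test, adjusted p under 0.05), where 51.5% of all 12197 genes were called, 27.1% as higher and 24.3% as lower. With library size alone as the scaling, the median of all genes moved by −1.29 on the log2 scale in that comparison, and the host genes called were 38 higher and 588 lower, so the split depends on the scaling. In polysomes no host gene was called between GEMIN5 and control, and 0.402% of all genes were called. At an unadjusted p under 0.05 there were 32 of the 673 host genes and 706 of all 12197 genes.

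Of the 25 listed regulators of short exons, 24 were tested, and in Input GEMIN5 against Input control 3 were called higher and 12 lower. Lower ones included SRRM1 (log2 fold change −2.28, SE 0.39), QKI (−1.97, SE 0.41), SRSF11 (−1.37, SE 0.25) and RNPS1 (−0.68, SE 0.12), all at an edgeR adjusted p under 0.05. PTBP1, the repressor of neuronal exons, was also lower (−0.88, SE 0.30, edgeR adjusted p = 0.0203). RBFOX2, which binds UGCAUG next to its exons, was higher by 2.53 (SE 0.14), and by 1.22 with library size scaling, while SRRM3 was higher by 1.07 with TMM and turned to −0.22 with library size. With library size scaling 1 regulator was called higher and 20 lower, where 605 of all 12197 genes were called higher and 9270 lower. In polysomes none of the 24 was called between GEMIN5 and control.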

How the data were processed

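Exon inclusion was deposited by the authors as percent (PSI) with a text field of corrected inclusion and exclusion read numbers per event and library, in a table in vast-tools layout on hg38, per the file headers. The authors also deposited a table of raw counts for genes. Reads were aligned with STAR 2.7.10a and counted with featureCounts on GRCh38, per the submitters' processing notes. The version of the splicing tool is not given in the sources used here.

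Members were events of 3 to 27 nt with at least 10 reads in at least 10 of 15 libraries. Each of 5 contrasts was fitted with limma 3.58.1 (trend, robust) to log2((inclusion + 0.5)/(exclusion + 0.5)) over every event type, where every compared library had 10 reads or more and PSI reached 5 in some library and 95 or less in some library, with Benjamini-Hochberg adjustment over all events tested. Genes were tested with edgeR 4.0.16 (TMM, filterByExpr, quasi-likelihood), with DESeq2 1.42.0 as an alternative. Scripts ran in R 4.3.3 and Python 3.11.15 and were tested on simulated data. Exons and sequences came from exact coordinate matches to GENCODE 29, which held a gene of another name for 7 hosts.

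The members and lists were chosen with earlier results of these data known. Microexons named are those called or past the rule on size, the 5 shortest (ties by reads), the 8 nearest a PSI of 50, hosts on a list of known microexon genes, and examples chosen after their values were seen. Depth per library was 11191417 to 18407933 gene counts, and members had a median of 20 to 74.5 reads per library. Limits and intervals cover counting error only. Intron sequence was not analysed here.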

Additional observations from a re-analysis of the deposited data

Results flagged for a closer look

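The effect of GEMIN5 on the 10-nt PRR14 event differed between fractions by 2.45 on the log2 odds scale (limma adjusted p = 0.0386), with polysome values of 86.35 to 91.97 in GEMIN5 and 89.27 to 95.48 in control and Input values of 40.42 to 48.09 in GEMIN5 and 81.03 to 91.53 in control.

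Single libraries stood apart from the other 3 of their group in 4 of 82 groups examined, and chance alone gives about 1 in 20. APEH had 98.15 in Input control replicate 2, where the other 3 were at 100. AP1B1 had 57.38 in Polysome GEMIN5 replicate 1, where the other 3 were at 0. MAX had 59.32 in Input control replicate 2, where the others were at 39.27 to 40.86, and C14orf166 had 5.26 in Input control replicate 1, where the others were at 3.52 to 3.77.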

How the results depend on the processing

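Counts of called microexons were small and moved with the settings. Input GEMIN5 against control gave 3 called, 6 with 1 added to each read number, 10 with weights from read numbers and 223 with no filter on PSI range, of which 207 differed by under 1 point. Polysome against Input in GEMIN5 cells gave 2, with 5 with 1 added, 7 with all 15 libraries in 1 fit, 12 with weights and 217 with no range filter (203 under 1 point). In control cells it gave 0, with 2 with weights and 14 with no range filter (13 under 1 point). The difference of effects gave 1, with 2 with 1 added, 2 with weights and 155 with no range filter (144 under 1 point). The cause of these moves was not tested. Shares over all events under the other settings, also with 1 library left out, are not given here. The counts are therefore no result about microexons in particular. Polysome GEMIN5 against control gave 0 under every setting run.

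Leaving out 1 library at a time gave 1 to 2 called in Input, 0 to 0 in polysomes, 0 to 0 for polysome against Input in control cells, 1 to 2 in GEMIN5 cells and 0 to 2 for the difference of effects. The rule on size gave 2 to 5 in Input, 0 to 2 in polysomes, 1 to 3 in GEMIN5 cells and 0 to 1 in control cells. Input called 1 without Input control replicates 1, 3 or 4 or Input GEMIN5 replicates 2 or 3, and PRR14 was called in each of the 7 fits that left out 1 library. Polysome against Input in GEMIN5 cells called 1 without Input GEMIN5 replicates 2 or 3 or Polysome GEMIN5 replicate 3. The rule on size moved most without Input GEMIN5 replicate 1, to 5 in Input.

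Host genes called ranged from 387 to 433 in Input and 0 to 10 in polysomes (10 without Polysome control replicate 1). For polysome against Input they ranged from 291 to 340 in control cells and 464 to 532 in GEMIN5 cells. For the difference of effects they ranged from 282 to 375. Library size only gave 603 there, where 8799 of all 12197 genes were called. With all libraries and TMM, 49.2%, 77.9% and 48.6% of 673 host genes were called in control cells, GEMIN5 cells and for the difference. Over all 12197 genes the shares were 43.2%, 67.6% and 37.3%. The GEMIN5 gene in polysomes against Input of GEMIN5 cells had a log2 fold change of −0.63 with TMM and 1.20 with library size only. Requiring reads in all 15 libraries left 490 members, and multiples of 3 then made up 53.3% of the coding ones.

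The labels do not say that replicate numbers mark a shared culture. Deviations of same-numbered libraries correlated between −0.04 and 0.05 over events and between −0.56 and 0.49 over genes. With 3 or 4 libraries per group, these correlations cannot exclude pairing. With the replicate number as a block, the called microexons were 0 in Input, 1 for polysome against Input in GEMIN5 cells and 0 for the difference of effects. PRR14 then had −3.10 in Input (limma adjusted p = 0.0533) and 2.43 for the difference (limma adjusted p = 0.0522), and the host genes called were 433, 0, 324, 516 and 311 in the order above.

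DPH7 in Input, which missed the threshold, passed it in 5 settings, C14orf166 in 3, and GTF3C5 between fractions of GEMIN5 cells in 4. Reads per microexon were lowest in Input GEMIN5, where the median member had 20 to 25 reads.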
